A study of Mus musculus with 28 samples.

Results

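The hippocampal CA1 field of mice carrying the CamkIIδC transgene was compared with that of their wildtype littermates, both drinking vehicle. The comparison takes the 9 transgenic vehicle and 10 wildtype vehicle libraries, 19 of the 28 libraries in the series, chosen by the genotype and agent in the labels, and all expressed genes were read. It asks what differs in CA1 in a mouse model of heart failure when no drug is given. All mice were 3 months old, and vehicle had been in the drinking water for 4 weeks from the age of 2 months. The other 9 libraries, from transgenic mice given vorinostat, entered only to share the estimate of spread. Male and female mice were used, and the labels give neither the sex of a library nor whether each library came from its own mouse, so the p-values reflect how far these samples vary, and some of that variation may be technical.

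CamkIIδC is a splice form of the calcium and calmodulin dependent kinase found in heart muscle. As background, mice that overproduce it in heart muscle develop dilated hearts and heart failure. CA1 pyramidal neurons carry the output of the hippocampus, and their transcripts are known to follow neuronal activity, stress hormones, oxygen supply and chromatin-modifying enzymes.

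No gene passed the test between the groups. edgeR's quasi-likelihood test on read counts called 0 of 17009 genes at an adjusted p under 0.05, a background of 0.0%, and the smallest adjusted p was 0.9998. At an unadjusted p under 0.05 there were 227 genes, 1.33% of those tested, of which 114 (0.67%) were higher and 113 (0.664%) lower in transgenic libraries. That share is below the 0.05 that the threshold alone gives when no gene differs. A small unadjusted p or an interval that leaves out 0 therefore sets no gene apart here, and the genes named below are described only. DESeq2 also called 0 genes, with 205 at an unadjusted p under 0.05, and voom called 0, with 652.

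The counts set narrow limits on how far most genes could differ. Standard errors on the log2 scale had a median of 0.0862. The 95% intervals lay wholly within a 1.5-fold difference for 15639 genes (91.95%), and for 12011 genes (70.62%) they stayed within 0.32 of 0 on the log2 scale. Among the 2368 genes at 100 CPM or more (CPM, reads of a gene scaled to a common library total after TMM correction), 96.54% were held within 0.32. Of the 2227 genes under 1 CPM, 0.943% were held that closely and 53.7% within 1.5-fold. The central 90% of log2 fold changes ran from -0.16 to 0.17. A fold change past 1.5 was seen for 45 genes and past 2 for 6 genes, and none of these passed the test.

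**Figure D1:**
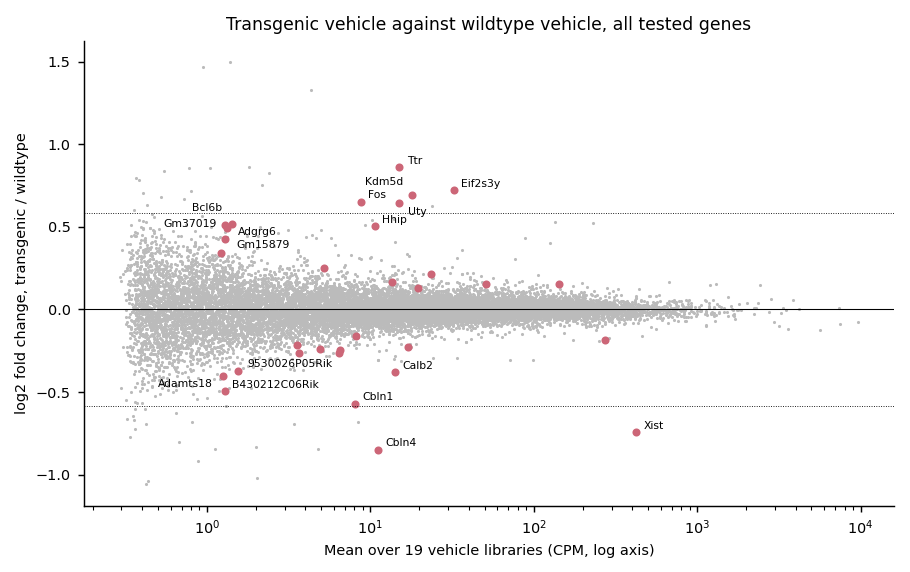
Each grey point is one of the 17009 tested genes, with its mean level over the 19 vehicle libraries in CPM on a log axis and its log2 fold change, transgenic over wildtype, on the other axis. Dotted lines mark a 1.5-fold difference, the red points are the genes of smallest p or largest difference described in the text, and the cloud narrows with level.

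The ranges of the groups overlapped for every gene. No gene had all 9 transgenic libraries outside the range of the 10 wildtype libraries, in either direction (0 of 17009, 0.0%). At most 8 of the 9 transgenic libraries lay past every wildtype library, for 1 gene in each direction: Gm37019 above and Hells below.

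The tissue and the libraries were checked before single genes were read. The CA1 markers Wfs1 and Fibcd1 had median levels per transcript length of 77.4 and 62 CPM per kb in wildtype and 77 and 61.5 in transgenic libraries. Prox1, a transcription factor of dentate granule cells, was at 2.5 and 3.5, and the choroid plexus carrier Ttr at 9.01 and 11.3 on the same scale. Totals per library were 20230085 to 33191857 counts in wildtype and 23437103 to 26732411 in transgenic libraries. Wildtype vehicle 2 stood apart, with 6.41% of counts from mitochondrial genes against 2.84 to 4.11% in the other 9 wildtype and 3.27 to 4.09% in the transgenic libraries. Xist exceeded the Y-linked genes in 6 of 10 wildtype and 3 of 9 transgenic libraries, so the sexes were spread unequally.

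Camk2d (chr3:126596302-126846326, GRCm38, plus strand) encodes the kinase from which the transgene derives. Because the transgene is known to act in heart muscle, its level in CA1 is no check of the genotype labels. Wildtype libraries ran from 39.8 through a median of 71.7 to 143 CPM, and transgenic libraries from 42.3 through 53.7 to 105 CPM. The groups overlapped almost entirely, with 7 of 9 transgenic libraries below the wildtype median. The log2 fold change was -0.30 (SE 0.228, 95% interval -0.77 to 0.16, unadjusted edgeR p = 0.193), and it was -0.16 without wildtype vehicle 1.

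The spread of Camk2d among wildtype libraries was shared by other genes with large differences. Wildtype vehicle 1, 6, 10, 2 and 8 had the highest Camk2d of their group, at 143, 110, 108, 93.9 and 87 CPM. Transgenic vehicle 7 and 6 had the highest of theirs, at 105 and 82.7 CPM. Cbln1, a secreted organiser of synapses (chr8:87468405-87472609, minus strand), was highest in the same 7 libraries. It was at 25.3, 19.4, 13.5, 11.1 and 8.88 CPM in those 5 wildtype libraries, and the other 5 held 2.52 to 4.68 CPM. In transgenic vehicle 7 and 6 it was at 12.9 and 10.5 CPM, while the other 7 held 3.44 to 6.6 CPM. The log2 fold change of Cbln1 between genotypes was -0.57 (SE 0.414, unadjusted edgeR p = 0.178), and it was -0.28 without wildtype vehicle 1. With sex, as read from Xist and the Y-linked genes, in the fit, Cbln1 was at -0.36 and Camk2d at -0.23. Xist exceeded the Y-linked genes in wildtype vehicle 1, 6 and 10 and transgenic vehicle 6 and 7, but not in wildtype vehicle 2 and 8. The part of sex in this pattern was not tested. Esr2, an estrogen receptor gene, was highest in the same 7 libraries as Cbln1. It was at 0.809 to 1.5 CPM in the 5 wildtype libraries against 0.0445 to 0.219 in the other 5, and at 0.938 and 0.546 CPM in transgenic vehicle 7 and 6 against 0 to 0.413 in the other 7. For these genes the libraries of 1 genotype differed from each other by more than the genotypes did.

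**Figure D2:**
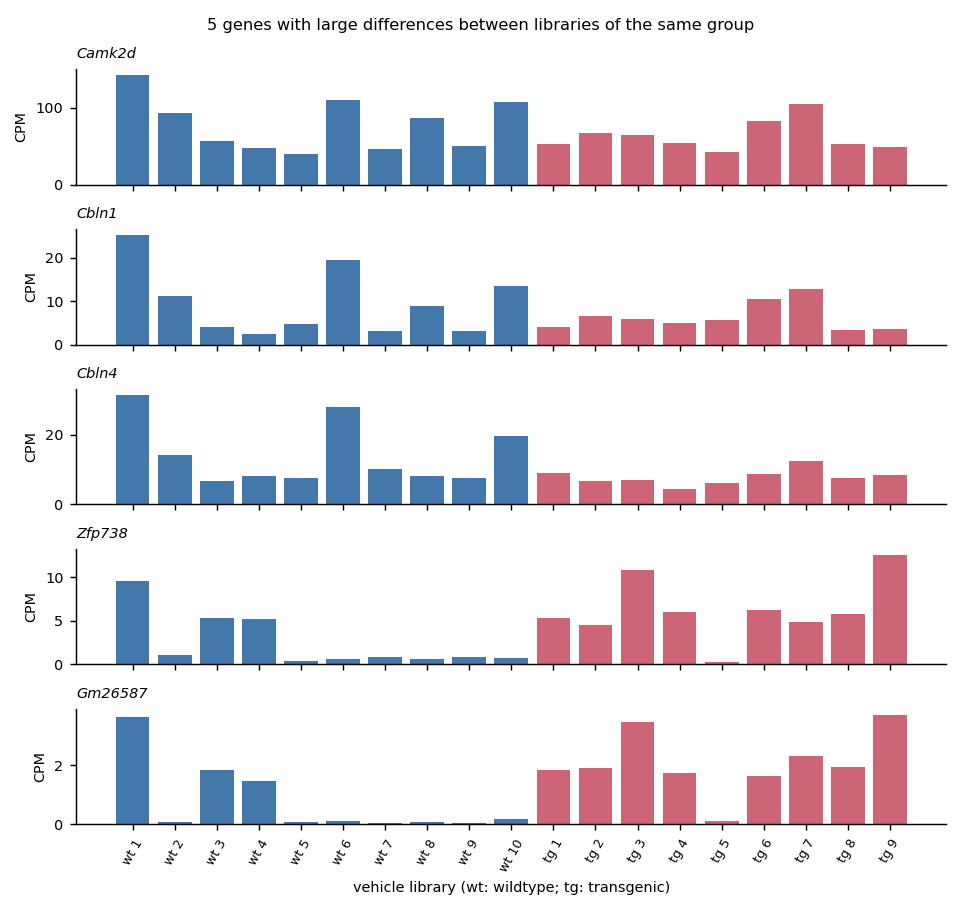
Bars give the level in CPM of 5 genes in each of the 10 wildtype (wt, blue) and 9 transgenic (tg, red) vehicle libraries, 1 gene per panel with its own axis from 0. Camk2d and Cbln1 are high in wt 1, 2, 6, 8 and 10 and in tg 6 and 7, and Zfp738 and Gm26587 share a second pattern.

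The gene of smallest p was Bcl6b, a transcriptional repressor of the BCL6 family (chr11:70224128-70229798, minus strand). It ran from 0.925 through a median of 1.12 to 1.69 CPM in wildtype and from 1.3 through 1.73 to 2.1 CPM in transgenic libraries. All 9 transgenic libraries were above the wildtype median and 5 above every wildtype library. The log2 fold change was 0.52 (SE 0.147, unadjusted edgeR p = 0.00133, adjusted p = 0.9998).

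Gm37019, a candidate transcript with no assigned function (chr12:102589277-102591410, minus strand), ran from 0.712 to 1.35 CPM in wildtype and from 1.18 to 1.8 CPM in transgenic libraries. Of the transgenic libraries 8 lay above every wildtype library, and the log2 fold change was 0.51 (SE 0.151). Adgrg6, an adhesion receptor known for its part in the myelination of peripheral nerve, had a log2 fold change of 0.49 (SE 0.169). Hhip, which binds and restrains hedgehog ligands, ran from 6.54 through 8.62 to 12.9 CPM in wildtype and from 6.34 through 12.2 to 19 CPM in transgenic libraries. Its groups overlapped, with 4 transgenic libraries above every wildtype library and 1 below all of them, and its log2 fold change was 0.50 (SE 0.179).

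Higher values at smaller folds came from better measured genes. Kcnk2, a potassium leak channel that sets the resting potential (chr1:189207930-189402273, minus strand), ran from 44.3 through 47.7 to 54.6 CPM in wildtype and from 50.4 through 54.3 to 57.2 CPM in transgenic libraries. All 9 transgenic libraries lay above the wildtype median and 4 above every wildtype library. Its log2 fold change was 0.15 (95% interval 0.04 to 0.26, unadjusted edgeR p = 0.00699), the largest of the 35 potassium, sodium and calcium channel genes tested. Btbd3, which directs dendrites towards active inputs, averaged 137 ± 10.9 CPM over the 10 wildtype and 152 ± 10.8 CPM over the 9 transgenic libraries (± SD), a log2 fold change of 0.15 (SE 0.0554). Tppp3, a promoter of tubulin polymerisation, had a log2 fold change of 0.22 (SE 0.0768). The cofilin kinase Tesk2 was at 0.25 (SE 0.0894), the ubiquitin ligase Siah2 at 0.17 (SE 0.0594) and Ccdc117 at 0.13 (SE 0.0474). Gm15879, at 0.43 (SE 0.144), is annotated as antisense. If strand was not kept, its reads cannot be told apart from those of the gene it overlaps.

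Among genes of smallest p with lower values, Hells, a helicase that supports DNA methylation (chr19:38930915-38971051, plus strand), separated the groups most. It ran from 3.71 through 3.86 to 4.67 CPM in wildtype and from 2.87 through 3.46 to 3.78 CPM in transgenic libraries. Of the transgenic libraries 8 lay below every wildtype library, and only transgenic vehicle 6 reached the wildtype range. The log2 fold change was -0.27 (95% interval -0.44 to -0.10, unadjusted edgeR p = 0.00338, adjusted p = 0.9998). Leaving out any 1 library moved it between -0.29 and -0.24.

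A pair of anion transporters of the same family lay beside it. Slc26a8, known from sperm, ran from 5.96 through 7.29 to 8.05 CPM in wildtype and from 5.05 through 5.82 to 6.86 CPM in transgenic libraries, a log2 fold change of -0.24 (SE 0.075). Slc26a4, the transporter pendrin, ran from 15.6 through 17.9 to 22.1 CPM and from 12.1 through 15.1 to 18.8 CPM, a log2 fold change of -0.23 (SE 0.0802). For each of them 5 transgenic libraries lay below every wildtype library.

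Plk2, a kinase induced by activity that weakens synapses (chr13:110395046-110400844, plus strand), ran from 223 through 296 to 329 CPM in wildtype and from 230 through 246 to 304 CPM in transgenic libraries. Its groups overlapped, with 8 of 9 transgenic libraries below the wildtype median, and the log2 fold change was -0.19 (SE 0.0696). The nucleotide enzyme Dctd was at -0.16 (SE 0.0586), Rasip1, which acts in vessel lining, at -0.24 (SE 0.0907) and the secreted protease Adamts18 at -0.40 (SE 0.147). The coiled-coil gene Ccdc87 was at -0.21 (SE 0.0808). The noncoding loci 9530026P05Rik, C130026L21Rik and B430212C06Rik had log2 fold changes of -0.37, -0.26 and -0.50, the first of them annotated as antisense and so open to the same doubt as Gm15879.

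Cbln4, a secreted synapse organiser related to Cbln1 (chr2:172036233-172043466, minus strand), had the largest negative log2 fold change among genes at 5 CPM or more, at -0.85 (SE 0.31, unadjusted edgeR p = 0.0103). It ran from 6.87 through 9.25 to 31.5 CPM in wildtype and from 4.33 through 7.6 to 12.5 CPM in transgenic libraries. The 3 highest values, 31.5, 27.9 and 19.7 CPM, belonged to wildtype vehicle 1, 6 and 10, which were also the 3 highest for Camk2d. In all 3 of them Xist exceeded the Y-linked genes, and with sex in the fit Cbln4 was at -0.65. Calb2, the calcium buffer calretinin, ran from 9.67 through 13.5 to 28.9 CPM in wildtype and from 10.1 through 11.7 to 16.3 CPM in transgenic libraries, a log2 fold change of -0.38 (SE 0.164), and -0.25 without wildtype vehicle 4. Its groups overlapped, and 3 wildtype libraries lay above every transgenic one.

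**Figure D3:**
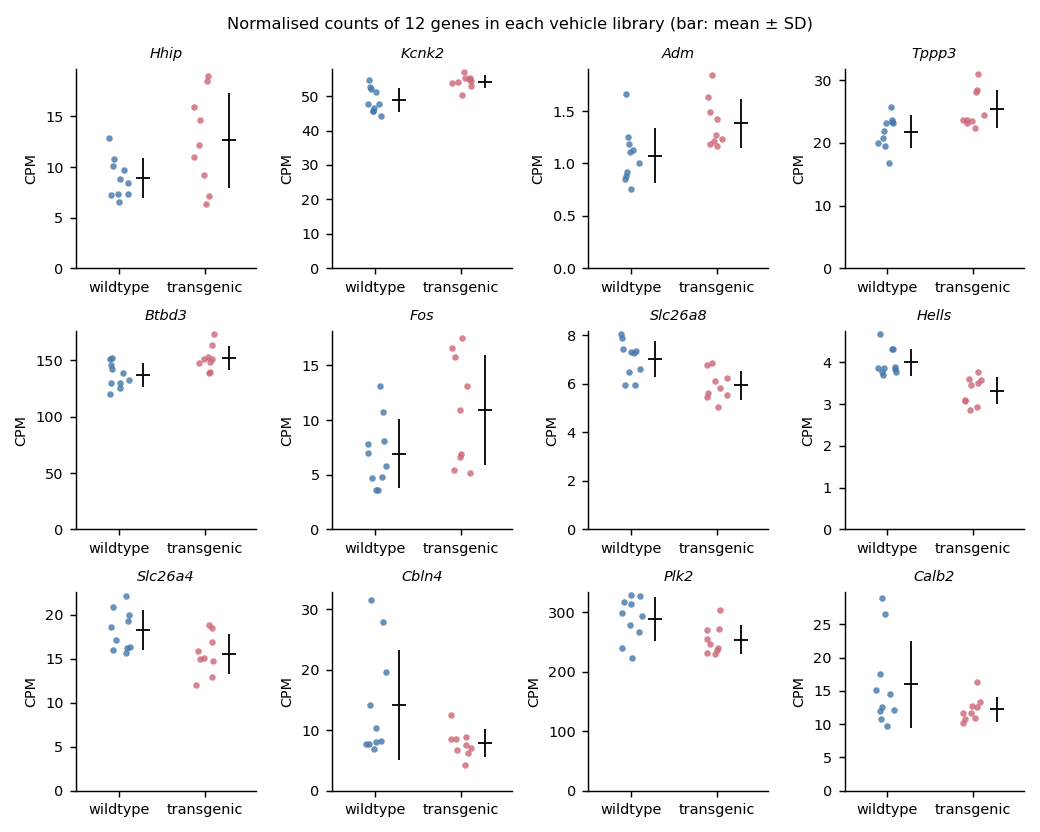
Points give the level in CPM of 12 genes in each wildtype (10, blue) and transgenic (9, red) vehicle library, with the mean and SD beside them and axes from 0. The groups overlap in every panel, least for Hells, where 8 transgenic libraries lie below every wildtype library.

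Genes of the sex chromosomes were also among the largest differences. Eif2s3y, Kdm5d and Uty, carried on the Y chromosome, had log2 fold changes of 0.72, 0.70 and 0.65, and Xist, the transcript that silences an X chromosome in females, had -0.74. Eif2s3y ran from 0 to 74.5 CPM in wildtype and from 0 to 68 CPM in transgenic libraries. With sex, as read from Xist and the Y genes, in the fit, the log2 fold change was -0.004 for Eif2s3y and 0.039 for Xist. That fit called 0 genes, with 300 at an unadjusted p under 0.05. Within sexes edgeR called 0 genes in males (210 at an unadjusted p under 0.05) and 0 in females (507). The genotype difference in males, set against the genotype difference in females, passed for 0 genes (348).

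The genes past a 2-fold difference that are described here were singled out after their values were seen. Zfp738, a zinc finger gene (chr13:67658685-67687071, minus strand), and Gm26587, a pseudogene within its span on the opposite strand (chr13:67660457-67661445), differed by 1.33 (SE 0.546) and 1.5 (SE 0.614) on the log2 scale. In 9 of the 28 libraries Zfp738 was at 1.08 CPM or less, and in the other 19 it ran from 4.54 to 15.1 CPM. It was at 0.445 to 1.08 CPM in 7 wildtype libraries, at 5.23 and 5.38 CPM in 2 and at 9.59 CPM in 1. Among transgenic vehicle libraries it was at 0.271 CPM in 1, at 4.54 to 6.22 CPM in 6 and at 10.8 and 12.6 CPM in 2. In vorinostat libraries, from mice that also carry the transgene, 1 was at 0.771 CPM, 2 at 7 and 7.63 CPM and 6 at 10.3 to 15.1 CPM. Gm26587 was low in the same libraries, at 0.0403 to 0.176 CPM in those of the vehicle groups against 1.46 to 3.7 CPM in the others. If strand was not kept, reads of the 2 loci cannot be told apart.

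A further 3 were low in level. Vit, an extracellular matrix gene, had a mean of 2.68 CPM in wildtype and 1.32 CPM in transgenic libraries, a log2 fold change of -1.02 (SE 0.403, unadjusted edgeR p = 0.0165). Esr2, whose libraries are described above with Camk2d, was at 0.586 and 0.275 CPM, a log2 fold change of -1.04 (SE 0.648). The pituitary hormone gene Gh was at 0.49 and 1.46 CPM, a log2 fold change of 1.47 (SE 0.818), and 2 transgenic libraries, at 5.3 and 3.49 CPM, lay above every wildtype library.

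Gene lists were read by the number of members on each side of 0 and by their median, beside all genes, of which 50.1% had a positive log2 fold change with a median of 0.0001. There were 41 lists, 23 of pathways and 18 of cell types, and their medians ran from -0.18 to 0.29. No member of any list passed the test across all genes by edgeR.

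Immediate early genes, transcribed within minutes of neuronal activity, had a positive log2 fold change in 25 of 26 members, with a median of 0.15, and 3 were at an unadjusted p under 0.05 (background 1.33%). With sex in the fit 26 of the 26 members were positive with a median of 0.20, and without wildtype vehicle 2, 24 of the 26 with 0.13. Their start regions are shown because the members lay on the same side and because the factors that switch them on, CREB and serum response factor, read known motifs there. The regions are from RefSeq (GRCm38.p6), 250 bases before to 50 after a start. Fos (chr12:85473640-85473939, plus strand) and Dusp1 (chr17:26508423-26508722, minus strand) have the short CREB site TGACG on either strand in capitals, which in Dusp1 includes the full site TGACGTCA. Egr2 (chr10:67537316-67537615, plus strand, 1 of its annotated starts) has the CArG box in capitals. Dusp1, a phosphatase that ends kinase signalling, was picked for that site.
Fos: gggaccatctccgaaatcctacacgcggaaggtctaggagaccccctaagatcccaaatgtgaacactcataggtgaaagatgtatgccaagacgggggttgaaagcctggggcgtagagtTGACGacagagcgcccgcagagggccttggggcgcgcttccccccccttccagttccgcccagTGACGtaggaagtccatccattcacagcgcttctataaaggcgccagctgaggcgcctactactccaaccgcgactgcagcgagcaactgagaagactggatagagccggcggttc
Egr2: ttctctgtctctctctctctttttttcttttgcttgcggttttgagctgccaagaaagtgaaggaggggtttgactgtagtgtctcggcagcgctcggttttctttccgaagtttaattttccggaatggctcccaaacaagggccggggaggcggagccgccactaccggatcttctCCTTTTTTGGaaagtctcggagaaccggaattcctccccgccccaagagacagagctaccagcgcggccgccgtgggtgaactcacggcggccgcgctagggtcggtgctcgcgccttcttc
Dusp1: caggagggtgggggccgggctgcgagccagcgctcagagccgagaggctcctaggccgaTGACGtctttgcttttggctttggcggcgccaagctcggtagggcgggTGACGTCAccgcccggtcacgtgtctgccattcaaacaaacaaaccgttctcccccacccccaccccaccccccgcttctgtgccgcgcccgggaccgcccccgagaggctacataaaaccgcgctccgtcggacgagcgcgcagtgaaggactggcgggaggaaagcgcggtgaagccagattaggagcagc
The search covered both strands of 33 start regions of the 21 list genes that matched. TGACG was in 19 of the 33 against 20.8% of all 32851 regions in the table. TGACGTCA, which contains TGACG, was in 2 of 33 against 1.79%, and the CArG box in 5 of 33, from 2 genes, against 1.63%. These are matches of letters and say nothing of binding in these mice.

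Fos, a subunit of the AP-1 transcription factor, ran from 3.57 through a median of 6.4 to 13.1 CPM in wildtype and from 5.12 through 10.9 to 17.5 CPM in transgenic libraries. Transgenic vehicle 1, 2 and 8 lay above every wildtype library, and 2 of 9 lay below the wildtype median. The log2 fold change was 0.65 (SE 0.315, unadjusted edgeR p = 0.0474). Egr2, a zinc finger factor, ran from 0.927 through 1.88 to 3.2 CPM in wildtype and from 1.14 through 2.31 to 7.66 CPM in transgenic libraries, a log2 fold change of 0.83 (SE 0.377), and 0.54 without transgenic vehicle 1. Its highest values were again in transgenic vehicle 1, 8 and 2. Egr1, a factor of the same family, ran from 72.3 through 112 to 134 CPM in wildtype and from 107 through 136 to 215 CPM in transgenic libraries, a log2 fold change of 0.40 (SE 0.166).

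The members did not share this difference evenly. Arc, a synaptic scaling protein, averaged 112 ± 42.6 CPM over the 10 wildtype and 161 ± 74.5 CPM over the 9 transgenic libraries (± SD). Npas4, a factor known for its induction by calcium entry, was at 9.35 ± 3.29 and 10 ± 2.18 CPM, a log2 fold change of 0.10 (SE 0.184). Dusp1 was at 0.21 (SE 0.151), Nptx2, a secreted pentraxin at synapses, at 0.02 (SE 0.135) and Jun, a partner of Fos, at -0.001 (SE 0.0857). Arc, Npas4 and Dusp1 were named outside the naming rule, after their values were seen. Transgenic vehicle 1 held the highest value of the 19 libraries for 11 of the 26 members, and transgenic vehicle 1, 8 and 2 were the 3 highest in the list's mean. The other 6 transgenic libraries ranked from 5 to 16 of 19. Wildtype vehicle 2 was the lowest.

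Genes that respond to stress hormones, low oxygen and misfolded protein showed small differences. Glucocorticoid response genes were positive in 15 of 19 with a median of 0.04, from Nfkbia, an inhibitor of NF-kB, at -0.08 (SE 0.106) to the lipid droplet gene Plin4 at 0.33 (SE 0.242), or 0.20 without transgenic vehicle 4. Hypoxia response genes were positive in 9 of 19 with a median of -0.02. Adm, the precursor of the vasodilator adrenomedullin, was the exception at 0.34 (SE 0.124, unadjusted edgeR p = 0.00923), from 0.755 through 1.06 to 1.66 CPM in wildtype and from 1.16 through 1.28 to 1.84 CPM in transgenic libraries. All 9 transgenic libraries were above the wildtype median, and 1 lay above every wildtype library. The vessel growth factor Vegfa was at 0.10 (SE 0.0732) and the glycolytic enzyme Eno1 at -0.07 (SE 0.0541). Genes of the unfolded protein response were positive in 23 of 28 with a median of 0.03. Of the 28, 0 were at an unadjusted p under 0.05 (background 1.33%), and 27 were held within 1.5-fold. Adrenergic receptors, which sense noradrenaline, were positive in 6 of 8, from Adra2c at -0.09 (SE 0.0752) to Adra1b at 0.12 (SE 0.104).

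Synaptic genes were tightly measured, and their lists' medians lay close to 0. All 38 glutamate receptor and postsynaptic density genes were held within 1.5-fold, with 20 positive and a median of 0.002, from Grin3a at -0.10 (SE 0.107) to Grm3 at 0.08 (SE 0.0689). Without wildtype vehicle 2, 12 of the 38 were positive with a median of -0.02. The 35 channel genes had a median of 0.01, with 21 positive. Kcna4 was the lowest at -0.09 (SE 0.0723), and Kcna1, which speeds repolarisation in axons, was at 0.10 (SE 0.124) and at 0.004 without transgenic vehicle 6. Presynaptic release genes were positive in 12 of 27 and GABA receptors in 5 of 14, with medians of -0.01 each. Without wildtype vehicle 2 the positive members numbered 18 of 35 channel, 8 of 27 presynaptic and 7 of 14 GABA receptor genes. No member of these 4 lists other than Kcnk2 was at an unadjusted p under 0.05.

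Enzymes that write and remove histone acetylation, among them the deacetylases that vorinostat inhibits, had a median of 0.01 with 17 of 26 positive, and all 26 were held within 1.5-fold. Without wildtype vehicle 2, 13 of the 26 were positive. Of these genes 3 were at an unadjusted p under 0.05 (background 1.33%). Kat2b, an acetyltransferase, ran from 14.9 through 16 to 19.2 CPM in wildtype and from 14.3 through 18.4 to 22.1 CPM in transgenic libraries, a log2 fold change of 0.15 (SE 0.0623, unadjusted edgeR p = 0.0212). The deacetylase Hdac8 was at 0.13 (SE 0.0611) and the deacetylase Hdac9 at -0.15 (SE 0.0745). Enzymes of histone H3 lysine 4 methylation had a median of 0.02, with 17 of 22 positive and 0 at an unadjusted p under 0.05. All 22 were held within 1.5-fold, from the demethylase Kdm6a at -0.07 (SE 0.104) to the methyltransferase Setd1b at 0.07 (SE 0.124). Without wildtype vehicle 2, where Setd1b was at 35.7 CPM against 58.4 to 62.5 in the other 9 wildtype libraries, 9 of the 22 were positive and Setd1b was at 0.01. DNA methylation enzymes were positive in 10 of 14, and without wildtype vehicle 2 in 7 of 14 with a median of -0.001, with Hells, described above, the only one at an unadjusted p under 0.05, Uhrf1, its partner in copying methylation, at -0.18 (SE 0.155) and the oxidising enzyme Tet1 at 0.08 (SE 0.0745).

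Genes of respiration and protein turnover moved with wildtype vehicle 2. Nuclear genes of oxidative phosphorylation were positive in 5 of 51 with a median of -0.03, and without that library in 40 of 51 with a median of 0.01. Cytochrome c, Cycs, was at -0.14 (SE 0.111) with it and -0.05 without. Mitochondrially encoded genes were positive in 0 of 7 with a median of -0.09, and without it in 4 of 7 with a median of 0.01. Ribosomal proteins went from 10 of 43 positive to 29 of 43, and proteasome subunits from 5 of 29 to 23 of 29. In each of these lists the sign of the median turned without that 1 library.

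**Figure D4:**
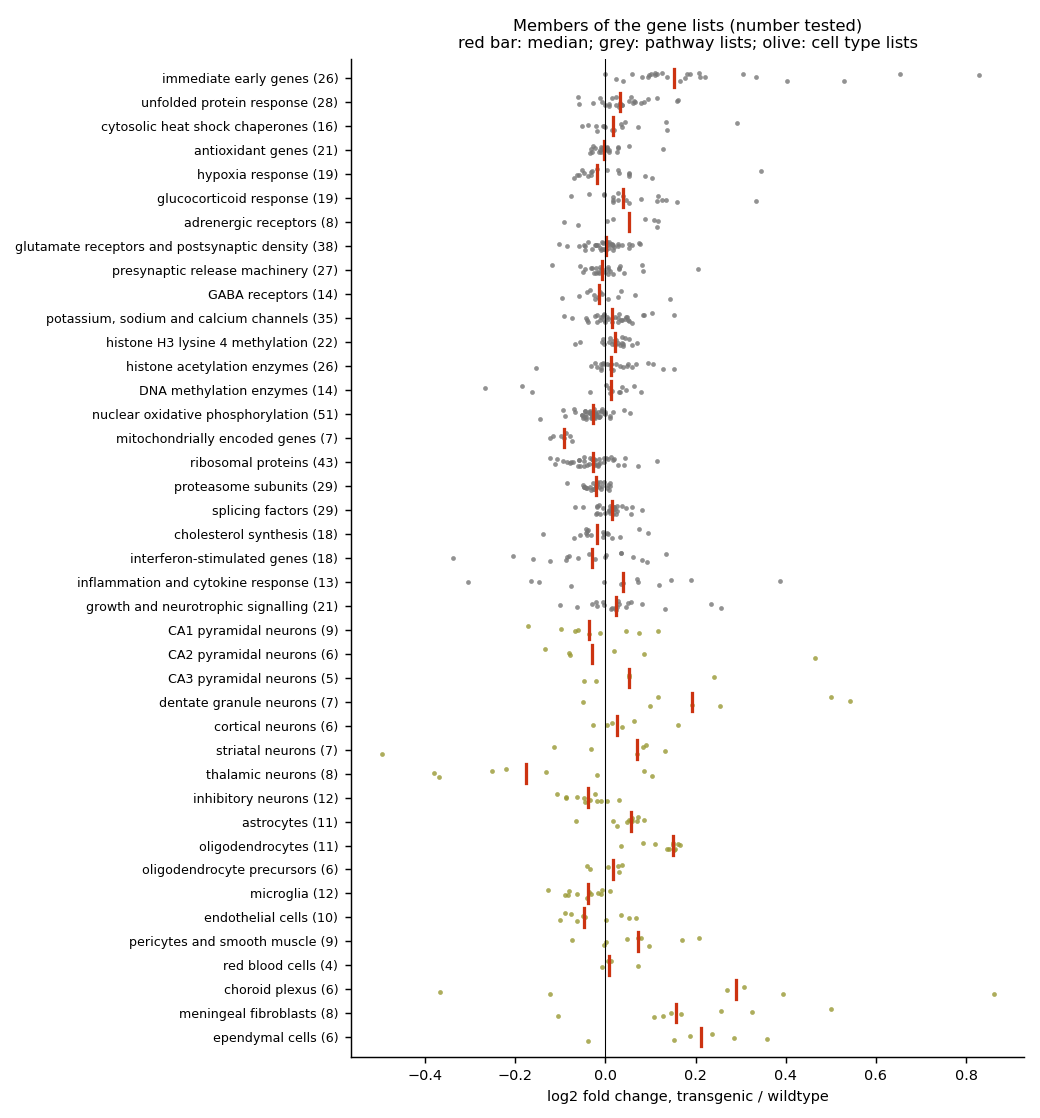
Each row is a gene list with the number of members tested, each point a member's log2 fold change, transgenic over wildtype, and each red bar the list's median (grey points for pathways, olive for cell types). Most medians lie close to 0, with immediate early genes at 0.15 and choroid plexus, dentate granule and thalamic markers among the widest.

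Markers of other cell types were read because CA1 was dissected by hand. In bulk tissue, fewer cells of a type and less RNA per cell cannot be told apart. Oligodendrocyte markers were positive in 11 of 11 with a median of 0.15, and their summed level ran from 3546 through 5034 to 6259 CPM in wildtype and from 3968 through 5722 to 8039 CPM in transgenic libraries. The myelin gene Mobp was at 0.17 (SE 0.137), and at 0.10 without transgenic vehicle 6, and Opalin at 0.04 (SE 0.169), and 5 of 9 transgenic libraries lay above the wildtype mean of the list. Astrocyte markers were positive in 10 of 11 with a median of 0.06. Microglial markers were positive in 1 of 12 with a median of -0.04, from Aif1 at -0.13 (SE 0.0797) to the growth factor receptor Csf1r at 0.01 (SE 0.0609), and all 12 were held within 1.5-fold. Without wildtype vehicle 2, 3 of the 12 were positive with a median of -0.01. Of 20 inflammation and cytokine genes listed, 13 were expressed enough to be tested, and 8 of the 13 were positive. Only 9 of the 13 were held within 1.5-fold, so larger differences remain possible for the rest. Interferon-stimulated genes were positive in 8 of 18, with 16 of the 18 held within 1.5-fold. Both lists had 0 members at an unadjusted p under 0.05 (background 1.33%).

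Markers of neighbouring regions varied widely between libraries of the same group. Dentate granule markers were positive in 6 of 7 with a median of 0.19, and their sum ran from 49.6 through 72.3 to 144 CPM in wildtype and from 66.8 through 87.7 to 135 CPM in transgenic libraries. The junction gene Dsp, at 0.54 (SE 0.493) and at 0.34 without transgenic vehicle 3, ran from 2.11 to 28.1 CPM in wildtype and from 2.14 to 25.2 CPM in transgenic libraries. Thalamic markers were negative in 6 of 8 with a median of -0.18, and their sums were 72.4 to 101 and 75.5 to 92.3 CPM. The 2 positive members were Plekhg1 at 0.10 (SE 0.102) and Rgs16 at 0.09 (SE 0.102). In the authors' adjusted table, described below, 4 of the 8 were positive with a median of -0.04. The lowest members were Calb2 at -0.38, the transcription factor gene Lhx9 at -0.37 (SE 0.306) and the kinase gene Prkcd at -0.25 (SE 0.11, unadjusted edgeR p = 0.0288), which was at -0.15 without wildtype vehicle 9. Choroid plexus markers were positive in 4 of 6 with a median of 0.29. Prlr was at -0.37 (SE 0.258) and Sostdc1 at -0.12 (SE 0.182), while Aqp1 was at 0.39 (SE 0.247). The highest member, Ttr, was at 1.61 in males and at -0.56 in females. Ttr, the thyroid hormone carrier, ran from 1.74 through 10.7 to 25.1 CPM in wildtype and from 5.93 through 13.4 to 43.7 CPM in transgenic libraries, a log2 fold change of 0.86 (SE 0.561). CA1 pyramidal markers themselves were positive in 3 of 9 with a median of -0.04. The part of these cell types in the single-gene differences was not tested.

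The authors also deposited a table of expression values adjusted by a mixed linear model whose terms are not given in the sources used here, and the same comparison on it gave another picture. limma on that table called 379 of 18014 genes at an adjusted p under 0.05, 2.1% of the table, of which 263 (1.46%) were higher and 116 (0.644%) lower in transgenic libraries. Of the 363 called genes also tested in counts, 351 had the same sign there (over all 17006 genes in both, 10907, or 64.14%). In counts 49 of the 363 had an unadjusted p under 0.05 and 0 passed adjusted. Both sets of values come from the same libraries, and the called genes were picked for their difference in the table. The shared sign is therefore no independent evidence. The called genes had a median difference of 0.27 in size in the table's own log units and of 0.13 on the log2 scale in counts. The table's spread was smaller, with a median within-group SD of 0.115 against 0.166 in log2 CPM. limma counts no degrees of freedom for terms the authors had already fitted, and its p-values take no account of them.

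Acot3, a thioesterase of fatty acid metabolism in peroxisomes, had the smallest adjusted p by limma in the adjusted table, 0.00119, with a difference of -0.32 (SE 0.0446). Its adjusted values ran from 1.02 to 1.39 in wildtype and from 0.791 to 1.09 in transgenic libraries, while its counts ran from 1.54 through 2.1 to 2.51 CPM and from 1.39 through 1.65 to 2.35 CPM. The groups overlapped in both. Penk, the precursor of enkephalin peptides, differed by -0.37 (SE 0.0625, adjusted p by limma 0.0104) in the adjusted table and by -0.11 (SE 0.115, unadjusted edgeR p = 0.331) in counts, where it ran from 21.4 to 35.5 CPM in wildtype and from 16.2 to 33.8 CPM in transgenic libraries. Rab27a, a GTPase of vesicle secretion, was at -0.27 in the table and -0.16 in counts, Frmd7, a regulator of neurite growth, at -0.54 and -0.36, and Efcab6 at -0.37 and -0.17. Lat2 was at -0.27 and -0.19.

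Among genes called higher in the adjusted table, the anthrax toxin receptor gene Antxr2 differed by 0.32 in the table and had a log2 fold change of 0.31 (SE 0.135) in counts. The muscle light chain gene Myl1 was at 0.41 and 0.27. Ranbp9, a scaffold protein, was at 0.16 and 0.05, with 63.9 to 81.8 CPM in wildtype and 69.5 to 81.8 CPM in transgenic libraries. Bach1, a heme-sensing repressor, was at 0.20 and 0.08, the phosphatase Cdc14b at 0.24 and 0.09 and the Myc-binding gene Mycbp at 0.22 and 0.10. In the table no transgenic library overlapped the wildtype range for 7 of the 18014 genes above and 4 of the 18014 below. In counts this held for 0 of 17009 genes in either direction.

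Some genes of small p in counts were also called in the adjusted table: Bcl6b, Gm37019, Adgrg6, Hhip and Ccdc117 higher and Slc26a4, C130026L21Rik and Plk2 lower. Hells was not, at -0.14 with an adjusted p by limma of 0.199, nor was Kcnk2, at 0.13 with 0.129. Of the listed enzymes of histone acetylation, Kat2b at 0.21 (adjusted p by limma 0.0398) and Hdac8 at 0.19 (0.0411) were called. Immediate early genes were positive in 12 of 26 in the table, where 59.9% of all genes were positive, with a median of -0.03 and 0 called. Glucocorticoid response genes were positive in 6 of 19 there with a median of -0.05, and glutamate receptor and postsynaptic density genes in 12 of 38 with a median of -0.08. Of the nuclear oxidative phosphorylation genes 43 of 51 were positive there. Camk2d and Cbln1 had the opposite sign in the table, at 0.26 and 0.59.

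The authors' 14 coexpression modules were read beside these calls, and most genes called in the adjusted table lay in modules whose called genes shared a direction. Over all 18014 genes, 2.1% were called, 1.46% higher and 0.644% lower. The blue module, of 1606 genes, held 157 of the 263 called higher and 0 called lower. In lightcyan 52 of 1531 genes, in cyan 18 of 1465 and in lightgreen 16 of 501 were called higher, with 0 lower in each. The called share of cyan lay below that over all genes. The brown module, of 1131 genes, held 53 of the 116 called lower and midnightblue, of 594 genes, held 42, with 0 called higher in either. Other modules held few calls for their size. Green had 3 higher and 5 lower among 2971 genes, purple 5 and 8 among 2666 and yellow 1 and 4 among 1116. Black had 10 higher and 0 lower among 1924 genes, though 36.24% of its tested genes were positive in counts. Greenyellow, darkred, royalblue and lightyellow held 3, 1, 1 and 0 calls. In counts the blue module was positive for 69.98% of its 1499 tested genes with a median of 0.04, lightgreen for 83.16% with a median of 0.07 and cyan for 73.7%, against 50.1% of all genes. Lightcyan was positive for 55.62%, brown for 38.59% and midnightblue for 32.23%, the last with a median of -0.03. The modules were made by the authors from expression values, and libraries of these groups may be among those used, so they are not independent of the comparison.

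**Figure D5:**
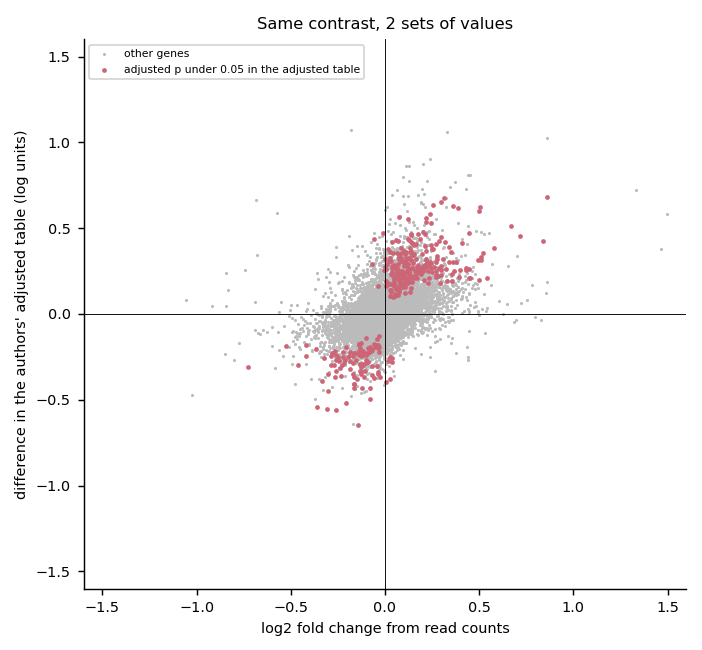
Each point is a gene, with its log2 fold change from read counts on the horizontal axis and its difference in the authors' adjusted table, in that table's log units, on the vertical axis, for the same comparison. Genes called by limma in the adjusted table (red) lie mostly on the same side of 0 in counts, at smaller values.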

How the data were processed

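RNA was measured by sequencing in 28 CA1 libraries, and the report rests on 9 transgenic vehicle and 10 wildtype vehicle libraries, grouped by their titles. The deposited files of each library hold read counts as whole numbers. The tools named for making them are STAR 2.5.2b, featureCounts (Subread 1.5.1) and FastQC 0.11.5 on mm10, per the submitters' processing notes. For annotation release and strand setting, the sources used here give nothing. Further tables deposited by the authors hold adjusted values on a log scale, read as log2, and the module of each gene. Of 48709 gene identifiers, 48349 were matched to a symbol, and positions are from GENCODE M21 on GRCm38.

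Genes were tested with edgeR 4.0.16 in R 4.3.3 (quasi-likelihood test, robust fitting, TMM scaling, low-count filter at 10 reads and 15 reads in total), in 1 fit over all 28 libraries and 3 groups. This left 17009 genes, with p-values adjusted by Benjamini and Hochberg and a threshold of 0.05. DESeq2 1.42.0, limma 3.58.1 and sva 3.50.0 gave alternatives, and the adjusted table was tested with limma. The edgeR test was also run on simulated counts. Those had the same spread for all genes and no variation shared across genes, so they cannot check the test against such variation in these libraries. Libraries held 20230085 to 33191857 counts, and the 81 pairs within the vehicle groups showed no identical files.

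Named genes were Camk2d, the 12 of smallest p in each direction at a mean of 1 CPM or more, the 5 largest log2 fold changes in each direction at 5 CPM or more, and in each list described by its members the 2 highest, the 2 lowest and any at an unadjusted p under 0.05. The 6 of smallest p in each direction were named from the adjusted table. Some genes that the rule names are not reported here. The comparison, the lists and the tests were chosen with earlier results of these data known, so no list is independent evidence. Alternatives covered scaling, filters, the test, covariates, single libraries left out and replicate blocks.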

Additional observations from a re-analysis of the deposited data

Results flagged for a closer look

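Among 192 groups of values tested for a single stray library, 15 had one, 7.81% where chance gives about 1 in 20. Wildtype vehicle 2 gave 6 of them. Its mitochondrial share was 6.41% against 2.84 to 4.11% in the other 9 wildtype libraries, and its hemoglobin level was 101 CPM against 19.5 to 33. It was the lowest for the histone methyltransferase gene Setd1b, at 35.7 CPM against 58.4 to 62.5, and the highest for Hdac8 at 13.1, Cycs at 10.2 and Uqcrb at 20.8 CPM. Without it hemoglobin averaged 25 CPM in wildtype and 32.8 CPM in transgenic libraries (two-sided exact permutation p = 0.0352, adjusted p = 0.211 over 6 tests), against 32.7 and 32.8 CPM with it.

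Transgenic vehicle 5 was the highest of its group for the respiratory chain genes Ndufs8, at 60.7 CPM against 46.1 to 52.5, and Uqcrb, at 19.8 CPM, and for the microglial gene Aif1, at 17.1 CPM. Transgenic vehicle 6 was highest for the chaperone cofactor Sdf2l1 at 10.1 CPM against 6.8 to 7.66, transgenic vehicle 7 for the asparagine synthetase gene Asns at 89.7 CPM and transgenic vehicle 3 for Prkcd at 13.5 CPM. Wildtype vehicle 4 was highest for the dentate marker Tdo2 at 2.92 CPM. Wildtype vehicle 5 was highest for Eno1 at 89.9 CPM and in total, with about 33200000 counts.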

How the results depend on the processing

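No gene passed by edgeR, DESeq2 or voom under any alternative run on counts, or without any 1 library. Genes at an unadjusted p under 0.05 numbered 652 with voom and quality weights, 1039 with no low-count filter, 364 with the mitochondrial share and 586 with 5 surrogate variables as covariates, 412 without the 4 libraries of high mitochondrial share, 507 in females and 398 with sex as a covariate in the vehicle libraries without wildtype vehicle 2 (the last and the split by sex were chosen after seeing the data). They ranged from 172 to 325 over fits that left out 1 library, and genes without overlap from 0 to 1. The authors' adjusted table gave 379 called and 3662 at an unadjusted p under 0.05. The cause of these shifts was not tested.

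Same-numbered libraries did not pair: correlations of their deviations ran from -0.339 to 0.408 by title number (1 of 9 best with its own) and from -0.204 to 0.144 by description number (0 of 9). With a replicate block, 0 genes passed, with 187 and 227 at an unadjusted p under 0.05.

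Of 1206 log2 fold changes of named genes under alternatives other than single libraries left out, 1144 kept their direction and side of the threshold. In the adjusted table the sign turned for Camk2d (0.265), Cbln1 (0.589), Xist (0.255), Kdm5d (-0.037), Egr2 (-0.0359), Nptx2 (-0.152), Csf1r (-0.062), Hdac11 (0.024), Kdm6a (0.0904), Setd1b (-0.0233), Bnip3 (0.0751), Asns (0.0186), Homer3 (-0.122), C1ql2 (0.0957), Trpc6 (-0.0178), Tdo2 (-0.00491), Prlr (0.00589) and Sostdc1 (0.0661). With surrogate variables it turned for Kdm5d (-0.0581), Uty (-0.0563), Xist (0.272), Jun (0.0846), Kdm6a (0.0562), Kdm5c (0.00282), Adra1d (0.0107), Kcna1 (-0.0372), Plekhg1 (-0.0514), C1ql2 (0.0663), Opalin (-0.128), Mog (-0.0636), Ermn (-0.0214) and Mobp (-0.011). With sex in the fit it turned for Eif2s3y (-0.00424), Kdm5d (-0.0466), Uty (-0.0911), Xist (0.039), Jun (0.0175), Kdm6a (0.0386) and Kdm5c (0.0542). Voom turned Jun (0.0017), Nptx2 (-0.00694), Chac1 (0.0151) and Csf1r (-0.0174), the mitochondrial covariate Nptx2 (-0.0089) and the fit without the 4 libraries Nptx2 (-0.013) and Csf1r (-0.00159). The block by description number turned Jun (0.00841), Nptx2 (-0.0242), Arrdc2 (0.00164) and Csf1r (-0.0134), and that by title number Opalin (-0.0475) and Csf1r (-0.00777). Over single libraries left out, Jun ran from -0.0323 to 0.0262, Nptx2 from -0.0322 to 0.086, Arrdc2 from -0.116 to 0.00817, Csf1r from -0.0165 to 0.0348, Cx3cr1 from -0.0384 to 0.0242, C1ql2 from -0.153 to 0.0298, Opalin from -0.0681 to 0.107, Adra1d from -0.127 to 0.00357 and Uqcrb from -0.00071 to 0.0916. The cause was not tested. Depth limits the genes under 1 CPM.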
